A study of Mus musculus with 58 samples.

Results

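Messenger RNA of the prefrontal cortex was compared between wild-type mice that had received fluoxetine and wild-type mice that had received vehicle. The comparison took every library labelled wild type and either fluoxetine (10 libraries) or vehicle (10 libraries), which is 20 of the 58 libraries of the study, with 5 females and 5 males in each treatment. Genes with a mean normalised read count of at least 10 over all libraries were tested, which kept 16669 of 18088 genes. The study set fluoxetine and lithium against vehicle in wild-type mice and in mice heterozygous for Kmt5b, a gene for a methyltransferase of histone H4, all of the C57BL/6J strain. Each library has its own replicate number within genotype, treatment and sex. By the labels every group, vehicle included, was on a schedule of 3 weeks, from postnatal day 3 to 24, in which pups were dosed by way of their mothers' milk. Tissue was taken at postnatal day 25. Besides the wild-type fluoxetine and wild-type vehicle mice, 10 heterozygous (HT) fluoxetine mice, 10 HT vehicle mice and 8 wild-type lithium mice entered comparisons below. The dose a pup took in is not given in the labels. The labels name no litters or dams, and pups that share a dam share the drug, so the p-values measure the spread between these samples, and effects of drug and of litter cannot be told apart.

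Fluoxetine is a selective serotonin reuptake inhibitor: it blocks the transporter that returns serotonin to the axon terminal, and it is prescribed as an antidepressant. In the cortex, synaptic activity drives a rapid wave of transcription of immediate early genes, which code for transcription factors such as Fos and the Egr family and also for effector proteins such as Arc. Other effector genes follow later, in part through those factors. Cholesterol synthesis in brain cells is set by the transcription factor SREBP2, which INSIG proteins hold in the endoplasmic reticulum while sterols are plentiful. Unfolded protein in the endoplasmic reticulum raises transcription of chaperones through ATF6, XBP1 and ATF4, and corticosterone acts on transcription through the glucocorticoid receptor.

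The 20 libraries held 23.9 to 31.5 M reads as recovered from the values. No library went against its sex label in Xist and Y-linked genes (0 of 20). Kmt5b averaged 1742 ± 124 normalised counts (mean ± SD, n = 10) with fluoxetine and 1616 ± 119 with vehicle, and did not pass the test (adjusted p = 0.105). Cortical markers were high throughout: Slc17a7, the vesicular glutamate transporter of cortical excitatory neurons, lay between 36994 and 55883 with fluoxetine and between 44308 and 55041 with vehicle. Libraries stood apart in 2 ways. In 4 of them (fluoxetine male 2 and vehicle female 3, male 1 and male 5) the mean log2 level of olfactory bulb markers lay between 3.603 and 5.01, against 6.77 to 10.6 in the other 16. In 6 of the 10 vehicle libraries long transcripts were low relative to short ones, as described with the exon lengths.

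With fluoxetine, 664 genes rose (3.98% of those tested) and 568 fell (3.41%), at an adjusted p under 0.05. Together these were 1232 genes, or 7.39%, and 4081 genes had an unadjusted p under 0.05. Most differences were small. The median size was 0.23 on the log2 scale among genes that rose and 0.22 among those that fell, against 0.084 over all genes tested. Only 74 risen and 41 fallen genes changed more than 1.5-fold, and 8 and 10 more than 2-fold. All 10 fluoxetine libraries lay above all 10 vehicle libraries in 16 genes (0.096%) and below them in 39 genes (0.234%). The count depended on the model: it was 273 genes (117 higher and 156 lower, 254 of them among the 1232) when each library's slope on exon length (defined below, here the length slope) entered the model, 427 when log2 reads did, and 676 without the 4 libraries of low olfactory bulb level. Leaving out vehicle female 4 gave 668 genes, vehicle female 1 gave 724 and vehicle male 5 gave 746. Every log2 difference below is of log2(normalised count + 1), every error after ± is a standard error unless it is called SD, and each group had 10 libraries unless another number is given. Fold values come from the same scale and understate the change of genes of low count.

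Immediate early transcription factors were lower with fluoxetine. Of 26 such genes, 20 fell and 0 rose, with a median log2 difference of -0.68 against -0.00091 over all genes tested. In 7 of them no fluoxetine library reached the lowest vehicle library. As tissue was measured in bulk, fewer cells with the transcript and less transcript per cell cannot be told apart here or in any later result. Over 38 alternative settings between 16 and 21 of the 26 fell, and the lowest number came with the length slope in the model, while 1 rose in 6 of the settings.

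The AP-1 family, whose FOS and JUN proteins bind DNA as dimers, carried large differences. Fos (chr12:85473890-85477273, plus strand, GRCm38) had lowest, median and highest normalised counts of 244, 543 and 964 with fluoxetine and 722, 1201 and 1502 with vehicle. All but 2 of the fluoxetine libraries lay under every vehicle library, and the gene fell by 1.18 ± 0.252 on the log2 scale (adjusted p = 0.00219). Junb (chr8:84974484-84978718, minus strand), an AP-1 member, had 606, 835 and 1317 with fluoxetine and 1568, 1902 and 2703 with vehicle. The groups did not overlap, and Junb fell by 1.17 ± 0.182 on the log2 scale (adjusted p = 2.15e-05). Fosb and Fosl2 fell by 0.70 and 0.53. Jun fell by 0.21 (adjusted p = 0.0477), a call lost in 25 of the 38 alternative settings.

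Among the Egr zinc-finger factors, which bind GC-rich promoters downstream of MAP kinase signalling, Egr2 (chr10:67535475-67542188, plus strand) changed most. Its lowest, median and highest counts were 51.7, 128 and 308 with fluoxetine and 291, 423 and 565 with vehicle, so that 9 of 10 fluoxetine libraries lay below all vehicle libraries. It fell by 1.64 ± 0.313 on the log2 scale (adjusted p = 0.000533). Egr4 had 392, 499 and 886 with fluoxetine and 895, 995 and 1349 with vehicle and fell by 0.96 with no overlap. Egr1 fell by 0.79 (adjusted p = 0.000757), from a median of 9379 to 5074. Egr3 fell by 0.45 (adjusted p = 0.0172), and this call was lost in 5 settings, among them the model with the length slope.

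The orphan nuclear receptors of the Nr4a family were unequal. Nr4a1 (chr15:101254269-101274795, plus strand) had 1092, 1446 and 2209 with fluoxetine and 2568, 2891 and 3463 with vehicle, with no overlap, and it fell by 1.01 ± 0.148 on the log2 scale (adjusted p = 6.94e-06). Nr4a3 fell by 0.81 (adjusted p = 5.59e-05). Nr4a2 had a log2 difference of -0.37 that did not pass (adjusted p = 0.291), and its vehicle libraries were spread from 164 to 1148. Of the Krüppel-like factors, Klf10 had 527, 674 and 794 with fluoxetine and 903, 1344 and 1538 with vehicle and fell by 0.95 (adjusted p = 3.77e-07), while Klf2, which is also an endothelial factor, fell by 0.57. Neither overlapped between the groups. Ier2 and Ier5l, short immediate early genes, fell by 0.86 and 0.97, again with no overlap.

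The other 6 members of this list did not pass. Npas4, a factor that neurons induce through calcium entry, had 384, 596 and 1025 with fluoxetine and 510.0, 801 and 943 with vehicle. The groups overlapped widely, and the log2 difference of -0.30 had an adjusted p of 0.363. Atf3, a stress-responsive factor of low count, differed by -0.72 (adjusted p = 0.101). Nr4a2, Klf6 (0.16), Maff (0.31) and Klf4 made up the rest, and Klf4 had medians of 204 and 204.

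**Figure D1:**
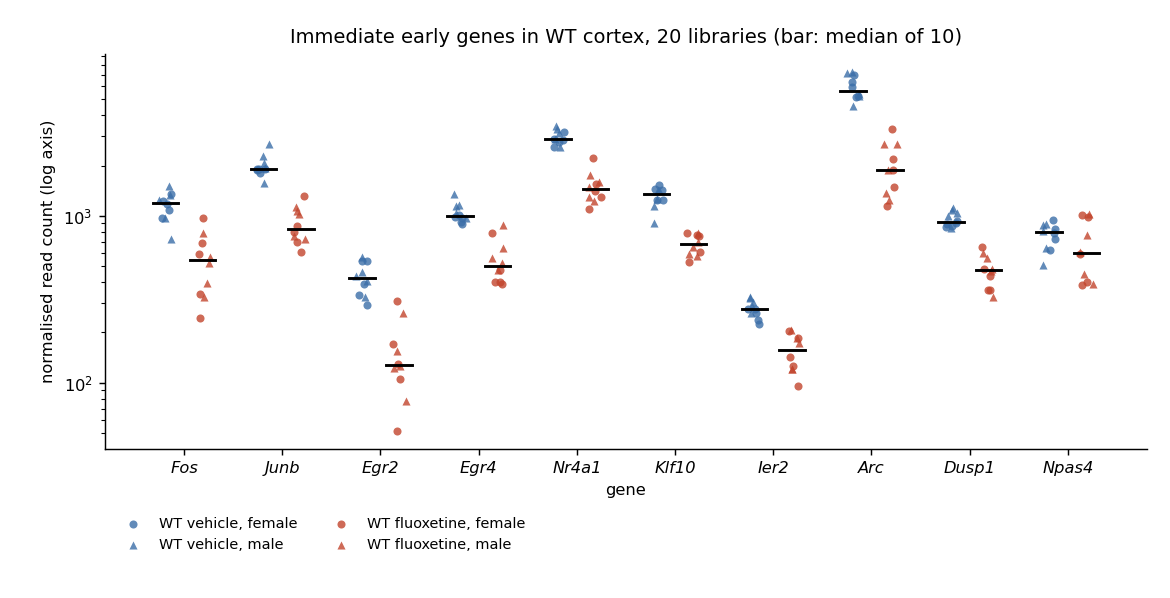
Normalised read counts (log axis) of 10 activity-regulated genes in each of the 20 wild-type libraries, females as circles and males as triangles, with a bar at the median of each group of 10. Fluoxetine libraries of Junb, Egr4, Nr4a1, Klf10, Ier2, Arc and Dusp1 all lie below the vehicle libraries, whereas those of Npas4 overlap.

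Effector genes of neuronal activity moved in part. Of 26 effectors 10 fell and 1 rose, with a median of -0.17. With the length slope in the model 6 fell and 0 rose. Arc (chr15:74669083-74672570, minus strand), whose protein regulates AMPA receptor trafficking at synapses, had the largest difference. Its lowest, median and highest counts were 1145, 1883 and 3307 with fluoxetine and 4518, 5623 and 7290.3 with vehicle. The groups stood apart, and Arc fell by 1.64 ± 0.263 on the log2 scale (adjusted p = 3.73e-05). Ccn1, a secreted matrix protein, fell by 0.97, and Gadd45b, a stress and demethylation-linked gene, fell by 0.76. Smaller falls were seen in the kinase genes Sik1 (-0.69) and Plk3 (-0.45), in the pseudokinase gene Trib1 (-0.52) and in Vgf (-0.35), which codes for a neuropeptide precursor. The calls of Plk3 and Vgf were lost in 2 and 6 settings. Inhba, the activin A subunit, rose 1.32-fold (adjusted p = 0.0355, a call lost in 15 settings). Bdnf (-0.17, adjusted p = 0.227), Homer1 (0.13) and Nptx2 (-0.11) did not pass. Bdnf counts were 616, 899 and 1158 with fluoxetine and 883, 952 and 1306 with vehicle, and 5 of the 10 fluoxetine libraries were below the lowest vehicle library.

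Feedback inhibitors of MAP kinase signalling were lower where they changed: 6 of 16 fell and 0 rose, with a median of -0.17 and a range over the settings of 4 to 8 fallen. Dusp1 (chr17:26505590-26562128, minus strand), a nuclear phosphatase of p38, JNK and ERK, had 328, 474 and 651 with fluoxetine and 845, 916 and 1115 with vehicle. With no overlap between groups, it fell by 1.04 ± 0.149 on the log2 scale (adjusted p = 6.08e-06). Dusp6, the cytoplasmic ERK phosphatase, had 1404, 1597 and 2218 with fluoxetine and 2051, 2559.5 and 2953 with vehicle and fell by 0.59 (adjusted p = 0.000203). Nab2, a co-repressor of EGR proteins, fell by 0.56 with no overlap. The Sprouty genes Spry4 and Spry2, inhibitors of receptor tyrosine kinase signalling, fell by 0.43 and 0.18, and Dusp14 by 0.21. The calls of Spry2 and Dusp14 were lost in 6 and 13 settings. Dusp4 (0.01, adjusted p = 0.972) and Dusp5 (-0.41, adjusted p = 0.0937) did not pass.

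Promoter windows of these genes (250 bases before to 50 after each start, RefSeq, GRCm38.p6) were searched on both strands for 2 elements known from activity-regulated genes, the CArG box bound by serum response factor and the cyclic AMP response element TGACGTCA. A CArG box was present in 2 of 22 immediate early genes with a window (9.09%), in 0 of 18 effectors and in 1 of 14 MAP kinase feedback genes (7.14%), against 1.64% of all tested genes with a window. TGACGTCA was present in 2 of 22 (9.09%) of the same genes, in 4 of 18 effectors (22.2%) and in 2 of 14 MAP kinase feedback genes (14.3%), against 3.38%. Over all genes that fell and had a window, 2.3% held a CArG box and 4.14% TGACGTCA, and over all that rose 1.33% and 3.32%. Among the other pathway lists with windows the share with TGACGTCA ran from 0% (late sterol enzymes, for one) to 13% (glucocorticoid-responsive genes). Shown are genes chosen for strong falls in which a match lies before the start. Other carriers, among them Maff (TGACGTCA) and Dusp5 (CArG box), which did not pass, are not shown. Capitals mark the matched element, 5 bases are given on either side, and each line reads 5′ to 3′ along the gene's strand. The 2 CArG boxes of Egr2 lie in windows of 4 annotated starts, of which 1 holds the first box and 3 share the second. A match describes these letters and is not a measured binding site.
Egr2 chr10:67537489-67537508 (plus strand): cttctCCTTTTTTGGaaagt
Egr2 chr10:67537792-67537811 (plus strand): tcagtCCATATATGGgcagc
Dusp1 chr17:26508603-26508620 (minus strand): gcgggTGACGTCAccgcc

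Genes of cholesterol synthesis were lower. Of 22 sterol enzymes 18 fell and 0 rose, with a median log2 difference of -0.21. Of 12 enzymes from acetyl-CoA to lanosterol and its isoprenoid branch, 10 fell (median -0.23), and of 10 enzymes from lanosterol to cholesterol 8 fell (median -0.19). With the length slope in the model, 5 of 12 and 3 of 10 fell. With the choroid plexus marker level in the model, 5 of the 10 late enzymes fell.

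Sqle (chr15:59315077-59331192, plus strand), squalene epoxidase, had lowest, median and highest counts of 1534, 1765 and 1923 with fluoxetine and 2024, 2199 and 2458 with vehicle. No fluoxetine library reached the lowest vehicle library, and Sqle fell by 0.32 ± 0.0463 on the log2 scale (adjusted p = 6.94e-06). Fdft1, squalene synthase, fell by 0.29, also with no overlap. Hmgcs1, a synthase near the start of the pathway, fell by 0.26 with 9 of 10 fluoxetine libraries below all vehicle libraries. Mvd, Idi1, Fdps, Pmvk, Acat2 and Mvk, which carry mevalonate on to farnesyl diphosphate or supply acetoacetyl-CoA, fell by 0.18 to 0.30, and each of these 6 calls was lost with the length slope in the model. Lss, lanosterol synthase (-0.08), and Ggps1, which makes geranylgeranyl diphosphate (0.05), did not pass.

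Among late enzymes, the lanosterol demethylase Cyp51 had 1685, 1876 and 2294 with fluoxetine and 2278, 2486 and 2586 with vehicle and fell by 0.35 ± 0.051 (adjusted p = 6.94e-06). Msmo1, a C4-methyl oxidase, had 1683, 2151 and 2358 with fluoxetine and 2251, 2603 and 3003 with vehicle and fell by 0.32. In both genes 9 of 10 fluoxetine libraries lay below every vehicle library. Nsdhl, Dhcr7, Hsd17b7, Tm7sf2 and Sc5d fell by 0.13 to 0.26, calls lost in 2, 1, 10, 5 and 9 settings. Ebp (-0.07) and Lbr (-0.02) did not pass.

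The sterol sensing and transport list was mixed, with 5 of 23 genes lower (21.7%) and 2 higher (8.70%), against 3.41% and 3.98% of all genes tested. Insig1 (chr5:28071363-28078662, plus strand), itself a target of SREBP2 as well as its retention factor, had the smallest adjusted p of any gene in the comparison together with Hif3a. Its counts were 1315, 1554 and 1613 with fluoxetine and 1982, 2161 and 2334 with vehicle, with no overlap, and it fell by 0.52 ± 0.0568 on the log2 scale (adjusted p = 2.25e-08). Stard4, a sterol carrier, and Tmem97, a sterol-regulated membrane protein, fell by 0.31 and 0.25, and the call of Tmem97 was lost in 2 settings. Srebf2, the gene of SREBP2, fell by 0.15 (adjusted p = 0.0145), a call lost in 4 settings, among them the model with the length slope. Lrp8 and Soat1 rose 1.15-fold and 1.09-fold, calls that were lost in 13 and 24 of 38 settings. Abca1, the cholesterol exporter, differed by 0.06 (adjusted p = 0.719). Fatty acid genes, which SREBP1 regulates, had 1 rise and 1 fall in 15 (6.67% each, against 3.98% and 3.41% of all genes tested). These were Elovl6 (0.19) and Fads2 (-0.11), calls lost in 9 and 15 settings. Fasn (-0.06) and Srebf1 (-0.01) did not pass. The sterol regulatory element TCACNCCAC, searched on both strands, was found in the window of 1 of 17 sterol enzyme genes (5.88%), against 1.38% of all tested genes with a window. That gene was Hmgcs1, shown with the element in capitals, and no match in the other windows says only that these letters are absent there.
Hmgcs1 chr13:119690209-119690227 (plus strand): ccgtcTCACCCCACttccc

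**Figure D2:**
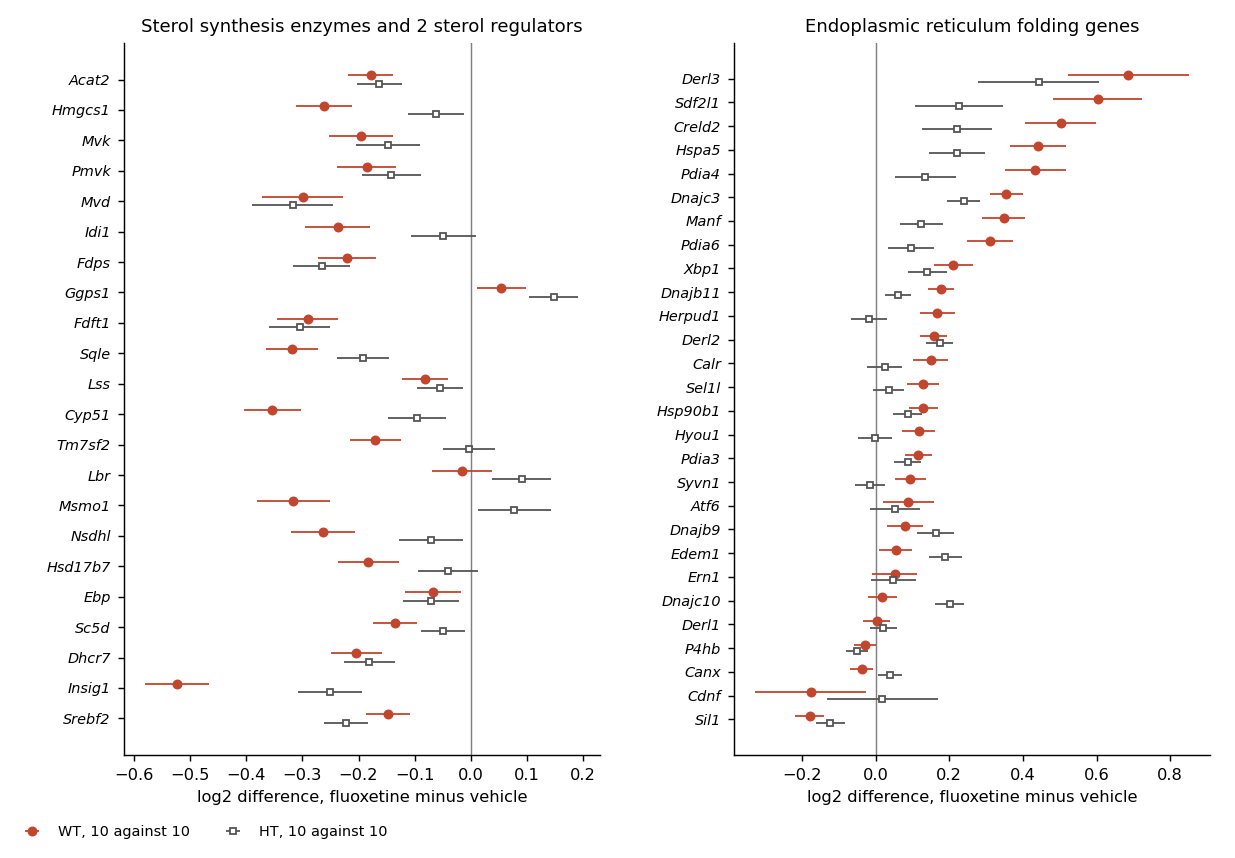
Log2 difference of fluoxetine against vehicle with its standard error for 20 sterol enzymes, 2 sterol regulators and 28 folding genes of the endoplasmic reticulum, in wild type (filled) and HT (open squares), 10 libraries a group. In wild type 16 of the 20 sterol enzymes drawn fell and 15 of 28 folding genes rose.

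Folding genes of the endoplasmic reticulum moved the other way. Of 28 such genes 15 rose and 1 fell, with a median log2 difference of 0.13, and 11 to 16 rose over the 38 settings. Hspa5 (chr2:34771970-34777547, plus strand), which codes for the chaperone BiP, had lowest, median and highest counts of 7447, 8671 and 11446 with fluoxetine and 5616, 6404 and 8004 with vehicle. Of the 10 fluoxetine libraries 7 exceeded every vehicle library, and Hspa5 rose 1.36-fold, a log2 difference of 0.44 ± 0.0757 (adjusted p = 0.00011). Dnajc3, a co-chaperone of BiP that also inhibits the kinase PERK, had 1896, 2114 and 2409 with fluoxetine and 1539, 1627 and 1874 with vehicle, with no overlap, and rose 1.28-fold, a log2 difference of 0.36 ± 0.0458 (adjusted p = 7.83e-07). Manf, a secreted factor induced by endoplasmic reticulum stress, had 1079, 1251 and 1472 with fluoxetine and 851, 989 and 1037 with vehicle and rose 1.27-fold, also with no overlap.

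Sdf2l1, a BiP-associated protein, rose 1.52-fold from a median of 249.8 to 364, and Creld2 rose 1.42-fold. The disulfide isomerases Pdia4 and Pdia6 rose 1.35-fold and 1.24-fold. Xbp1, the transcription factor of the IRE1 arm, rose 1.16-fold (adjusted p = 0.00931). Derl3, of the degradation machinery, rose 1.61-fold at low counts of 11.4 to 49.9 with fluoxetine and 17.2 to 31.9 with vehicle, a call lost in 1 setting. The lectin chaperone Calr and the HSP90 paralogue Hsp90b1 rose 1.11-fold and 1.09-fold, calls lost in 23 and 15 settings. Sil1, the nucleotide exchange factor of BiP, was the gene that fell (-0.18, adjusted p = 0.00323). The sensors Atf6 (0.09) and Ern1 (0.05) and the chaperone Hyou1 (0.12, adjusted p = 0.0999) did not pass.

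The endoplasmic reticulum stress response element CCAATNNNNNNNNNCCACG, bound by ATF6 with NF-Y, was searched in the same promoter windows on both strands. It was present in 9 of 23 folding genes with a window (39.1%), in 20 of 12099 tested genes with a window (0.165%) and in 0.129% of 15498 windows. Of the 9 folding genes with the element 7 rose (median difference 0.31), and of the 14 without it 7 rose (median 0.12). The remaining 5 had no window. Among all genes that rose and had a window, 8 of 452 held it (1.77%), and among those that fell 0 of 435. Of these 8 genes 7 are the folding genes just counted. No match of 1 motif overlapped a match of another. The lines below show the 9 genes, chosen because they hold the element, with it or its reverse complement in capitals. The 14 genes with a window and no element are not shown. The element is as written in Hspa5, Dnajc3, Pdia6, Canx, Syvn1 and the first line of Hsp90b1, and reversed in Creld2, Calr, Derl3 and the second line of Hsp90b1. Canx (-0.04) and Syvn1 (0.09) carried it and did not pass the test.
Hspa5 chr2:34772020-34772048 (plus strand): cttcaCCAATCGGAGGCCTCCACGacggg
Dnajc3 chr14:118937822-118937850 (plus strand): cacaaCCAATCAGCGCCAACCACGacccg
Hsp90b1 chr10:86705633-86705661 (minus strand): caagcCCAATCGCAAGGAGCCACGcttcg
Hsp90b1 chr10:86705528-86705556 (minus strand): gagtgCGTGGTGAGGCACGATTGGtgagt
Pdia6 chr12:17266486-17266514 (plus strand): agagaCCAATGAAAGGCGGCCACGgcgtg
Creld2 chr15:88819515-88819543 (plus strand): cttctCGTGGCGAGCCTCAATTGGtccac
Calr chr8:84847070-84847098 (minus strand): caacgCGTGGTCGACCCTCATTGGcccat
Derl3 chr10:75893237-75893265 (plus strand): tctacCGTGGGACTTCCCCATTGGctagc
Canx chr11:50325795-50325823 (minus strand): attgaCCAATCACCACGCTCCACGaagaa
Syvn1 chr19:6046527-6046555 (plus strand): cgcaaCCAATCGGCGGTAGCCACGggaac

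The integrated stress response, the ATF4 branch, showed 3 falls (13%, against 3.41% of all genes tested) and 0 rises in 23 genes (median -0.059). Cebpb, a bZIP factor, fell by 0.52 (adjusted p = 0.00108). Ddit4, an inhibitor of mTORC1 signalling, had 744, 868 and 1140.5 with fluoxetine and 1048, 1182 and 1505 with vehicle and fell by 0.40. Aars, alanyl-tRNA synthetase, fell by 0.11, a call lost in 4 settings. Atf4 itself (-0.12, adjusted p = 0.0813) and Ddit3, which codes for CHOP (0.08), did not pass. The fallen count was 5 under quantile normalisation and 5 without fluoxetine female 5, fluoxetine male 2 or vehicle female 2.

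Glucocorticoid-responsive genes moved in both directions: 7 of 28 rose and 7 fell (25% each), with a median of -0.023. Of all genes tested 3.98% rose and 3.41% fell. Fkbp5 (chr17:28399094-28517527, minus strand), a co-chaperone that limits the receptor, had counts of 861, 1063 and 1628 with fluoxetine and 433, 596 and 1114 with vehicle. The groups overlapped in part, with 5 of 10 fluoxetine libraries above all vehicle libraries, and Fkbp5 rose 1.82-fold, a log2 difference of 0.86 ± 0.141 (adjusted p = 5.14e-05). Zbtb16 (chr9:48654297-48836222, minus strand), a zinc-finger factor, had 919.8, 1318 and 1584 with fluoxetine and 491, 739 and 867 with vehicle. The groups did not overlap, and it rose 1.85-fold, a log2 difference of 0.88 ± 0.117 (adjusted p = 1.42e-06). Map3k6 and Sult1a1 rose 1.89-fold and 1.7-fold, Mertk rose 1.32-fold, and Plin4, a lipid droplet protein, rose 3.11-fold at counts of 12.98, 28.5 and 90.1 with fluoxetine and 2.93, 7.89 and 25.9 with vehicle (lowest, median and highest). Xdh rose 1.47-fold, a call lost in 23 settings.

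The 7 genes of that list that fell were Dusp1, Ddit4 (both described above), Arl4d, Per1, Nfkbia, Pdk4 and Nedd9. Arl4d, a small GTPase, had 270.1, 337 and 427 with fluoxetine and 503, 568 and 625 with vehicle and fell by 0.74 with no overlap. Per1, a clock gene that glucocorticoids and activity both induce, had 1845, 2152 and 2404 with fluoxetine and 2471, 3037 and 3568 with vehicle and fell by 0.50, also with no overlap. Nfkbia, the NF-kappa-B inhibitor, and Pdk4, a kinase that restrains pyruvate oxidation, fell by 0.30 and 0.36. The calls of Pdk4 and Nedd9 were lost in 1 and 3 settings. The receptor gene Nr3c1 (-0.09, adjusted p = 0.321), Sgk1 (-0.17) and Tsc22d3 (0.13) did not pass.

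Hif3a codes for a hypoxia-inducible factor alpha subunit that can oppose HIF1A and is also a glucocorticoid-responsive gene. Among genes that passed with a mean count of at least 100 in either treatment and the same sign in both sexes, it had the largest rise. Hif3a (chr7:17031507-17062427, minus strand) had lowest, median and highest counts of 263, 380.2 and 448 with fluoxetine and 88.7, 147 and 227 with vehicle. The groups stood apart, and it rose 2.49-fold, a log2 difference of 1.32 ± 0.145 (adjusted p = 2.25e-08). Of 20 hypoxia genes 2 rose (10%) and 1 fell (5%), with a median of -0.041, against 3.98% and 3.41% of all genes tested. The others that changed were Arnt, the shared dimer partner, which rose 1.11-fold (a call lost in 8 settings), and Adm, the vasodilator peptide adrenomedullin, which fell by 0.65 (adjusted p = 5.94e-05). Hif1a (-0.02) and Vegfa (-0.12) did not pass.

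Of 28 insulin, IGF and FOXO genes 2 rose and 2 fell (7.14% each, against 3.98% and 3.41% of all genes tested). Depp1, a FOXO target linked to autophagy, fell at low counts of 9.04, 20.49 and 28.4 with fluoxetine and 42.2, 69.6 and 100.3 with vehicle, with no overlap and a log2 difference of -1.89 ± 0.228 (adjusted p = 2.55e-07). Igf1r (chr7:67952827-68233668, plus strand), the IGF1 receptor, had 2042, 2160.2 and 2353 with fluoxetine and 1457, 1634 and 1901 with vehicle, with no overlap, and rose 1.3-fold, a log2 difference of 0.38 ± 0.0608 (adjusted p = 3.49e-05). Insr rose 1.12-fold and Foxo6 fell by 0.41, calls lost in 9 and 24 settings. The list had 1 rise without vehicle female 1, vehicle female 4 or vehicle male 5 and 4 without vehicle male 3, and it had 1 fall without any single one of 15 of the 20 libraries.

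**Figure D3:**
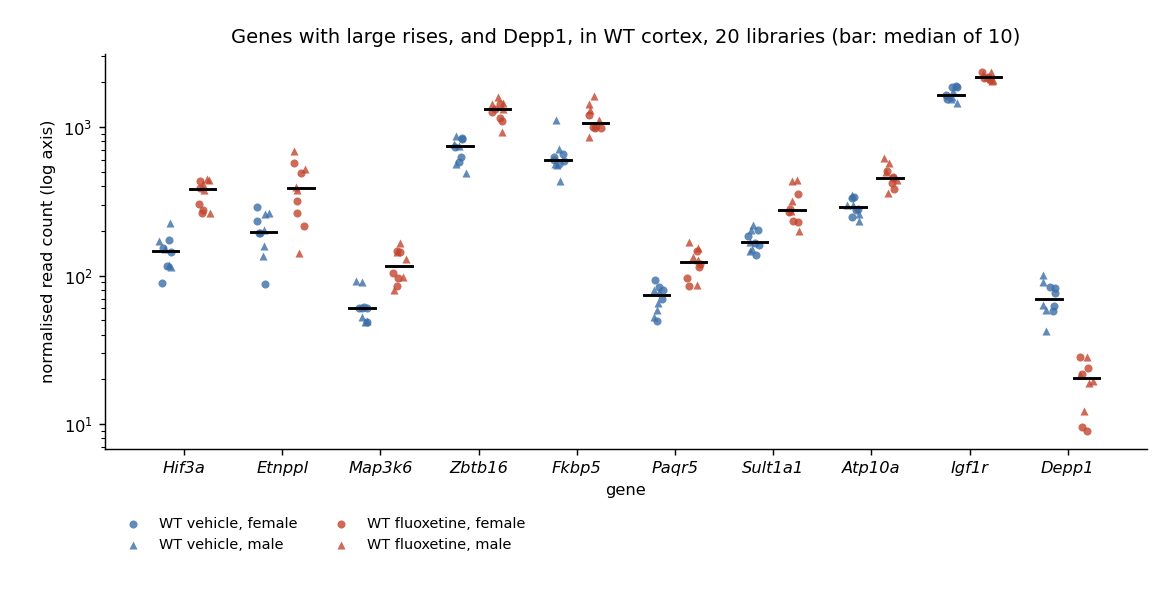
Normalised read counts (log axis) in the 20 wild-type libraries of 9 genes that rose and of Depp1, which fell, females as circles and males as triangles, with a bar at each group's median. Fluoxetine libraries of Hif3a, Zbtb16, Atp10a and Igf1r all lie above the vehicle libraries, and those of Depp1 all lie below.

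Large changes also occurred outside these pathways. Etnppl, an astrocyte enzyme that degrades phosphoethanolamine, had 142, 386 and 693 with fluoxetine and 88.2, 197 and 291 with vehicle and rose 1.89-fold (adjusted p = 0.0153), a call lost in 3 settings. Paqr5, a membrane progesterone receptor, had 84.4, 124 and 167 with fluoxetine and 49.7, 73.4 and 93.03 with vehicle and rose 1.71-fold. Atp10a, a phospholipid flippase, had 359, 456 and 614 with fluoxetine and 231, 289.9 and 346 with vehicle and rose 1.6-fold with no overlap. Pkp2, a desmosome component, Adam8, a membrane protease, and Galnt15, a glycosyltransferase, rose 1.64-fold, 1.58-fold and 1.52-fold. The call of Galnt15 was lost in 3 settings. Tmem252, a transmembrane protein, had 28.5, 48.9 and 77.4 with fluoxetine and 64.5, 126 and 170.4 with vehicle and fell by 1.22 ± 0.18 (adjusted p = 9.36e-06). Nr2e1, the nuclear receptor TLX of neural stem cells and glia, fell by 0.47, with 9 of 10 fluoxetine libraries below all vehicle libraries, and Sdk2, an adhesion protein, rose 1.43-fold.

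Clock genes showed 1 rise (5%) and 5 falls (25%) in 20, against 3.98% and 3.41% of all genes tested. Per3 had 1306, 1475 and 1524 with fluoxetine and 1071, 1190.1 and 1332 with vehicle and rose 1.22-fold (adjusted p = 0.000136), whereas Per1 fell, as did Nr1d1, which codes for the repressor REV-ERB alpha (-0.24), and Ciart (-0.26), whose call was lost in 18 settings. The activators Clock (0.13) and Arntl (-0.09) did not pass. With the length slope or log2 reads in the model, and without fluoxetine female 3, vehicle female 1 or vehicle female 4, 3 clock genes fell. Without vehicle female 3 or vehicle male 3, 2 and 3 rose.

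Of 18 genes of the serotonin system 1 fell (5.56%, against 3.41% of all genes tested) and 0 rose. The gene that fell was Maoa, the mitochondrial monoamine oxidase, with 943, 1017 and 1103 with fluoxetine and 999.5, 1116 and 1154 with vehicle. It fell by 0.12 (adjusted p = 0.0229), a call lost in 6 settings. The receptor genes Htr1a (0.04), Htr1b (0.09), Htr2a (0.14) and Htr2c (-0.08) did not pass. For Htr2a the 95% interval of the difference ran from 0.00541 to 0.281, and for Htr1a from -0.131 to 0.207. The transporter gene Slc6a4, the drug's target, was not analysed here.

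In the neurotrophin list 2 of 10 genes rose (20%, against 3.98% of all genes tested). These were the receptors Ntrk3 (1.18-fold) and Ntrk2 (1.11-fold), calls lost in 7 and 18 settings. Of 78 potassium channel genes 6 rose (7.69%) and 2 fell (2.56%), against 3.98% and 3.41% of all genes tested. Kcnj2, an inward rectifier, had 449, 617 and 748 with fluoxetine and 377, 479 and 536 with vehicle and rose 1.34-fold (adjusted p = 0.000899), and Kcnj6, a G-protein-gated rectifier, rose 1.3-fold, a call lost in 14 settings. With the length slope in the model 2 channel genes rose and 0 fell, and without vehicle female 1 or vehicle male 5 it was 3 that rose. The 2 falls became 0 or 1 without fluoxetine female 1, 2 or 3, fluoxetine male 4 or 5, vehicle female 1, 4 or 5, or vehicle male 1, 2 or 5. Grik3, a kainate receptor subunit, was the 1 of 24 glutamate receptor genes (4.17%) that rose (1.25-fold), a call lost in 2 settings. Gabrd, the GABA-A delta subunit, was the 1 of 15 GABA receptor genes (6.67%) that fell (-0.20), a call lost in 13 settings. Cytosolic heat shock genes had 1 rise (Hsf1, 0.14) and 1 fall (Dnajb5, -0.22) in 24, which is 4.17% each way. The fall was lost with the length slope or log2 reads in the model, and the rises were 2 without fluoxetine male 1 or vehicle female 2 and 3 without fluoxetine female 4 or vehicle female 3.

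Of 81 cytosolic ribosomal protein genes 8 fell (9.88%, against 3.41% of all genes tested) and 0 rose (median -0.12). Of 81 nuclear oxidative phosphorylation genes 5 fell (6.17%) and 0 rose (median -0.10). Both counts were 0 with the length slope or log2 reads in the model. They also turned on single libraries. Falls of ribosomal protein genes were 0 without vehicle female 1 or 4, 1 to 5 without fluoxetine female 1, 2, 3 or 5, fluoxetine male 4 or 5, or vehicle male 2 or 5, and 18 and 24 without vehicle female 2 and 3. Falls of oxidative phosphorylation genes were 0 without vehicle female 4, 1 without vehicle female 1 or male 5, 2 or 3 without fluoxetine female 1, fluoxetine male 4 or 5, or vehicle male 2, and 8 or 9 without fluoxetine male 2, vehicle female 2 or 3, or vehicle male 3. The 15 mitochondrially encoded genes had 0 calls and a median of -0.090.

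**Figure D4:**
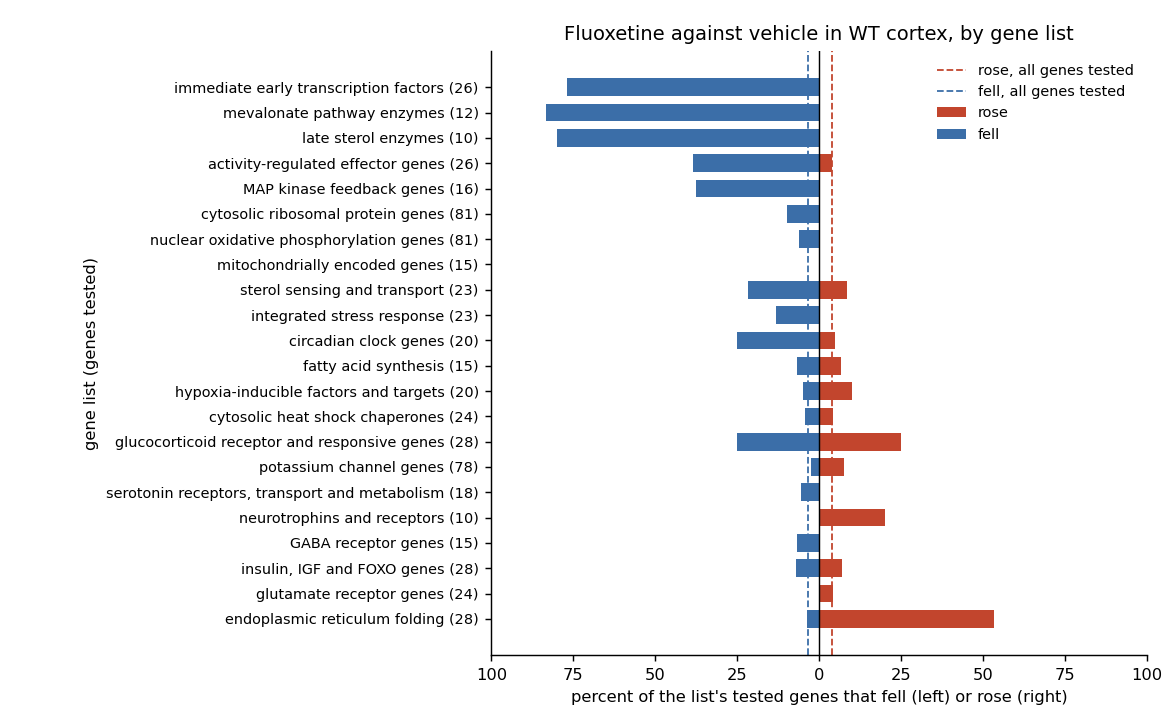
Percent of each of 22 pathway lists that fell (bars to the left) or rose (bars to the right) with fluoxetine in wild-type cortex, with dashed lines at the share of all genes tested (3.41% and 3.98%). Immediate early factors and sterol enzymes have the longest bars to the left and folding genes of the endoplasmic reticulum the longest to the right.

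Direction went with transcript length. Genes that rose had a median exon length of 6861 bases and genes that fell 3202, against 4196 over all genes tested. In 5 equal groups by exon length (medians 1589.5, 2887, 4196.5, 5928 and 9595 bases), the share that rose went from 1.38% to 9.42% and the median log2 difference from -0.067 to 0.062, while the share that fell was 4.502% in the shortest group, 5.22% in the next and 1.17% in the longest. Within each library the slope of log2 deviations on log2 exon length averaged 0.0215 ± 0.0163 (SD) with fluoxetine and -0.0137 ± 0.0419 (SD) with vehicle (2-sided exact permutation test within sex, n = 10 a group, p = 0.0162, adjusted p = 0.0745 over 17 library measures). Vehicle libraries fell on either side of 0, 6 between -0.0589 and -0.0301 and 4 between 0.00868 and 0.0552, and fluoxetine libraries lay between -0.00525 and 0.0509. Recovered reads averaged 25.95 ± 1.70 M (SD) with fluoxetine and 28.8 ± 2.74 M (SD) with vehicle (exact p = 0.0173, adjusted p = 0.0745). The part of slope and reads in the gene results was not tested beyond the covariate values given.

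Cell-type markers were set beside these changes. Of 18 endothelial and mural markers 3 fell (16.7%, against 3.41% of all genes tested) and 0 rose. Their mean log2 level was 9.502 ± 0.0684 (SD) with fluoxetine and 9.65 ± 0.157 (SD) with vehicle (exact permutation p = 0.0134, adjusted p = 0.0745). Tek, the angiopoietin receptor, had 369.6, 405 and 509 with fluoxetine and 440.1, 562 and 712 with vehicle and fell by 0.39 (adjusted p = 0.000987), and the barrier transporters Slco1c1 and Slco1a4 fell by 0.29 and 0.18, calls lost in 4 and 20 of 38 settings. The count of falls was 1 with the length slope in the model or without the 4 libraries of low olfactory bulb level, and 6 without vehicle male 3. Choroid plexus and ependyma markers passed in 0 of 6, with a mean log2 level of 5.84 ± 0.615 (SD) against 5.11 ± 0.671 (SD) (exact permutation p = 0.0219, adjusted p = 0.0745). Ttr, transthyretin, which choroid plexus secretes, had 20.6, 170.4 and 2585 with fluoxetine and 0, 73.9 and 171 with vehicle. Thalamus and habenula markers had a mean log2 level of 7.81 ± 0.266 (SD) with fluoxetine and 7.60 ± 0.135 (SD) with vehicle (exact permutation p = 0.0197, adjusted p = 0.0745). Of these markers 1 of 7 rose (14.3%, against 3.98% of all genes tested). It was Plekhg1 (0.37, adjusted p = 0.00258), a call lost in 2 settings. Olfactory bulb markers passed in 0 of 4. Excitatory neurons, astrocytes and microglia had 1 fall each (Rorb -0.18, Aldh1l1 -0.15 and Ctss -0.20), calls lost in 16, 10 and 3 settings. These falls were 6.67% of 15, 6.67% of 15 and 6.25% of 16 markers, against 3.41% of all genes tested. Markers of inhibitory neurons and oligodendrocytes passed in 0 of 17 and 0 of 15. Whether cell make-up had a part in the gene results was not tested beyond the covariates.

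**Figure D5:**
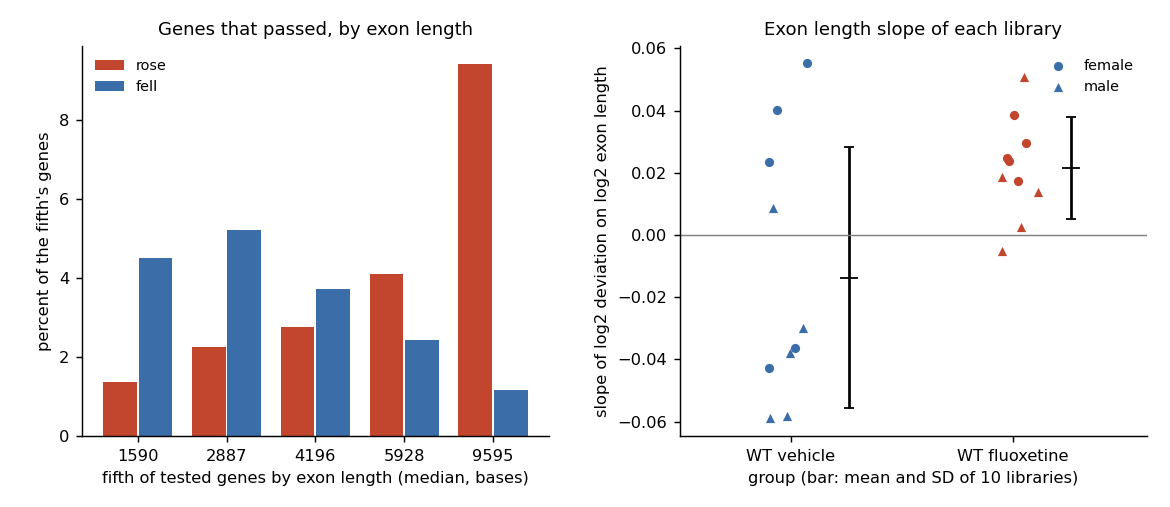
Percent of genes that rose and fell in each of 5 equal groups by exon length (left) and the slope of each library's log2 deviations on log2 exon length, with the group mean and SD (right), for 10 fluoxetine and 10 vehicle libraries. The share that rose climbs from 1.38% to 9.42%, and 6 vehicle libraries have slopes below -0.03.

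Both sexes took part. Tested alone, females had 52 rises and 87 falls (0.312% and 0.522%, together 0.834%) and males 117 and 141 (0.702% and 0.846%, together 1.55%). Of the genes that rose over both sexes, 663 of 664 were higher in females and 664 of 664 in males, and of those that fell 567 of 568 were lower in females and 568 of 568 in males, which the joint test favours by its construction. Fos differed by -1.19 in females and -1.17 in males, Arc by -1.64 and -1.63, Hif3a by 1.30 and 1.33, and Insig1 by -0.52 and -0.53. Hspa5 differed by 0.57 in females and 0.31 in males, and the 95% interval of male minus female ran from -0.558 to 0.0504. The interaction of sex and fluoxetine passed in 0 of 16669 genes (0%) by limma, edgeR and DESeq2, with 745 genes at an unadjusted p under 0.05 and a smallest adjusted p of 0.461. Predicted genes stood among the first of that ranking and are not named. The named genes at its head were Sgpp2, a sphingosine-1-phosphate phosphatase (-0.40 in females, 0.30 in males, adjusted p = 0.461), and the low-count genes Siglecf (0.77 and -0.65) and Cdk1 (0.60 and -0.98). Wnt2b, a Wnt ligand (-0.49 and 0.57), Pik3c3, a phosphatidylinositol 3-kinase (-0.12 and 0.15), and Mrpl32, a mitochondrial ribosomal protein (0.13 and -0.17), came next among named genes.

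Heterozygous mice gave a comparison in separate libraries. With 10 HT fluoxetine and 10 HT vehicle libraries, 1140 genes rose (6.84%) and 994 fell (5.96%), 12.8% in all. Of the 664 genes that rose in wild type, 597 (89.9%) had the same sign in HT and 200 (30.1%) passed there in the same direction, and of the 568 that fell 507 (89.3%) and 243 (42.8%). Over all genes tested 65.6% had the same sign in both genotypes. Length slopes lay between -0.0480 and 0.0324 in HT fluoxetine libraries and between -0.0772 and 0.0150 in HT vehicle libraries. The part of the length slope in the HT differences and in this agreement of signs was not tested. The median difference in HT was 0.12 for genes that rose in wild type by a median of 0.23, and -0.13 for those that fell by a median of 0.22. The wild-type medians are those that chose the genes. In HT, 20 immediate early factors fell and 1 rose, Klf6, and the 22 sterol enzymes had 8 falls and 1 rise. Folding genes of the endoplasmic reticulum had 6 rises and 1 fall in HT. Hif3a differed by 1.06 in HT, Arc by -1.26, Fos by -0.82, Insig1 by -0.25, Hspa5 by 0.22 and Zbtb16 by 0.27, of which Zbtb16 did not pass.

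The interaction of genotype and fluoxetine, the wild-type difference minus the HT difference, passed in 7 genes, all negative (0.042%). Slco1a4, an organic anion transporter of brain endothelium, averaged 1503 ± 132 (SD) with fluoxetine and 1707 ± 188 with vehicle in wild type, and 1632 ± 164 and 1338 ± 123 in HT. Its interaction was -0.47 ± 0.0814 (adjusted p = 0.00887). Mpeg1 (-0.32) and Ctss (-0.34), genes of microglia, S1pr1 (-0.42), Nr2e1 (-0.48) and Gpc5 (-0.27) had adjusted p-values from 0.0384 to 0.0403. Slco1a4 belongs to the endothelial and Ctss to the microglia markers. In HT, 6 of 18 endothelial and mural, 5 of 16 microglia, 4 of 15 astrocyte and 7 of 15 oligodendrocyte markers rose with fluoxetine and 0 fell, whereas in wild type the 4 lists had 0 rises and 3, 1, 1 and 0 falls. The mean log2 level of microglia markers lay between 9.32 and 9.65 with fluoxetine and 9.19 and 9.46 with vehicle in HT, and between 9.15 and 9.45 and 9.28 and 9.64 in wild type. That of endothelial and mural markers lay between 9.36 and 9.85 and 9.38 and 9.77 in HT, and between 9.38 and 9.62 and 9.33 and 9.88 in wild type. Olfactory bulb markers passed in 0 of 4 in either genotype, with median differences of -1.55 in HT and 0.83 in wild type, and their level lay between 4.03 and 10.6 with fluoxetine and 7.44 and 10.04 with vehicle in HT. The part of these markers in the interaction was not tested beyond the covariates. The 3 named genes with the smallest p on the positive side, Fam216a (0.20), Dnaaf3, a dynein assembly factor (1.20), and Sdk2 (0.58), had adjusted p-values from 0.0895 to 0.101. Nr2e1 averaged 324 ± 31.1 and 449 ± 46.1 in wild type and 418 ± 45.01 and 415 ± 38.8 in HT. The number was unstable: DESeq2 gave 17, edgeR 5, limma on the groups compared alone 0, and the fit without the 4 libraries of low olfactory bulb level 0. It was 1 without any single one of 17 libraries (HT fluoxetine female 1, 4 or 5, HT fluoxetine male 1, 3 or 5, HT vehicle female 4, HT vehicle male 1 or 4, WT fluoxetine female 3, WT fluoxetine male 1 or 4, WT vehicle female 1 or 5, WT vehicle male 1, 4 or 5), 2 without WT fluoxetine female 5, 3 without HT vehicle female 5, 4 without WT fluoxetine female 1 or 4, 11 without HT vehicle female 2, 25 without HT fluoxetine female 3 and 46 without HT fluoxetine male 4.

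Lithium-treated wild-type mice (8 libraries) were set against the same 10 vehicle libraries and differed in 325 higher (1.95%) and 231 lower genes (1.39%), 3.34% in all, so values of the 2 drugs against vehicle share their controls. Side by side, Fos differed by -1.18 with fluoxetine and -0.41 with lithium, Arc by -1.64 and -0.24, Insig1 by -0.52 and -0.30, Hspa5 by 0.44 and 0.50, Hif3a by 1.32 and 1.25, and Zbtb16 by 0.88 and 0.94. Fluoxetine and lithium libraries were also compared directly, with 277 genes higher (1.66%) and 425 lower (2.55%) under fluoxetine, 4.21% in all. Of the 26 immediate early factors 11 were lower and 1 higher (Klf6) than with lithium, of the 26 effectors 10 were lower, and of the 22 sterol enzymes 7 were lower. Of 28 folding genes 0 were higher and 1 lower (Sil1), with a median of 0.01. Arc lay -1.39 on the log2 scale from lithium (adjusted p = 0.00167) and Nr4a1 -0.68 (adjusted p = 0.00695), while Hspa5 differed by -0.06 (95% interval -0.223 to 0.0999) and Hif3a by 0.07 (interval -0.234 to 0.382).

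Predicted genes aside, the 3 genes each way with the smallest p between the drugs were these. Zc3h6, a zinc-finger gene (0.54), Gfpt2, an enzyme of the hexosamine pathway (0.47), and Prtg, protogenin (0.58), were higher with fluoxetine. Ppp2r1b, a scaffold subunit of phosphatase 2A (-0.48), Spry4 (-0.73) and Ptpn1, a tyrosine phosphatase (-0.30), were lower. Their adjusted p-values ran from 6.59e-08 to 0.000148. Of these 6, Spry4 and Ppp2r1b passed against vehicle with fluoxetine (-0.43 and -0.16), the latter a call lost in 16 settings. The total of 702 genes turned on single libraries. It was 2445 without lithium female 1, 247 without lithium female 3 and 247 without lithium female 4, 304 without lithium male 4, 446 without lithium male 3, 410 without fluoxetine male 4 and 421 without fluoxetine male 5.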

How the data were processed

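RNA was read by stranded mRNA sequencing, per the labels' protocols. The submitters' processing notes name the mouse build GRCm38, DESeq2 1.19.11, Salmon 0.11.2 and R 3.6.0. The authors' deposited table holds a signal per gene: estimated reads that were scaled by 1 factor for each library. Divided by each library's step, 100% of values were whole within 0.01 of a read in every library. These were taken as recovered reads in 54 of 58 libraries, and the other 4, all HT, were left out of the count tests. The 20 wild-type fluoxetine and vehicle libraries held 23.9 to 31.5 M reads, and counting error is small beside the spread between samples for all but genes of low count.

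Genes with a mean of at least 10 were fitted as log2(value + 1) with limma 3.58.1 (trend, R 4.3.3), all 12 groups of genotype, treatment and sex in 1 model, with Benjamini-Hochberg adjustment over all genes and a threshold of 0.05. Every adjusted p of a gene comes from this model. Single library measures were tested by exact permutation within sex. edgeR 4.0.16 (quasi-likelihood) and DESeq2 1.42.0 on recovered reads, other filters, pseudocounts and scaling, covariates, a replicate block and leaving out each library served as alternatives. The limma and count tests were tested on simulated data with known changes.

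The comparison and the gene lists were chosen with earlier results of these data known. Named were the 12 rises and 12 falls of largest log2 difference with the same sign in both sexes and a mean of at least 100 in either treatment, the 3 genes each way with the smallest p in each other comparison, up to 4 members of each list with the smallest p and members that define a pathway, and Kmt5b. Other genes named (further list members, Plin4, Depp1 and Nr2e1 among them) were chosen after their values were seen. Predicted genes were counted and not named, and a few genes of the lists are counted but not reported here. Gene IDs carried a symbol in 18077 cases and none in 11. Gene positions and exon lengths come from the GRCm38 annotation, and promoter windows from RefSeq, GRCm38.p6.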

Additional observations from a re-analysis of the deposited data

Results flagged for a closer look

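Among the genes and library measures reported, 1 library lay far from the other 9 of its group in the following cases, and chance gives about 1 in 20 groups. Named genes came to 118 that passed and 52 that did not, beside 17 library measures. In a search this wide many such cases arise at that rate. In vehicle libraries the highest were Ddit4 in male 2 (1505), Fkbp5 in male 3 (1114), Gfpt2 in male 4 (308.4), Lrp8 in female 2 (4484), Mpeg1 and Tek in male 1 (936.1 and 712.3) and Nr4a2 in female 5 (1148), and the lowest were Manf and Sdf2l1 in male 4 (851.4 and 151.3) and Pmvk in female 2 (786.6), all as normalised counts. In fluoxetine libraries the highest were Gadd45b in female 5 (314.9), Gpc5 in male 3 (1152), Jun in male 1 (1379), Nsdhl in male 2 (736.3) and Ttr in male 2 (2585), and the lowest were Derl3 in male 4 (11.43), Msmo1 in male 1 (1683) and Per3 in female 2 (1306).

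The same held for library measures. Fluoxetine male 5 had 30.09 M reads, above its group. Fluoxetine male 2, the library with the high Ttr count, had the lowest striatal marker level of its group (8.126) and the lowest olfactory bulb level (3.603), both as mean log2 values. Vehicle female 5 had the highest striatal level (9.234), and fluoxetine male 3 the highest level of thalamus and habenula markers (8.507).

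Fluoxetine differences that were not alike in the 2 genotypes, as wild type minus HT on the log2 scale by limma's interaction test, were those of Slco1a4 (-0.4667), Nr2e1 (-0.4761), S1pr1 (-0.4217), Ctss (-0.3433), Mpeg1 (-0.3239) and Gpc5 (-0.2655). Their adjusted p-values ran from 0.00887 to 0.0403.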

How the results depend on the processing

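The fluoxetine against vehicle count of 1232 genes in wild type was 770 with a replicate block, 273 with the slope on exon length in the model, 427 with log2 reads, 362 with olfactory bulb level and slope together, and 676 without the 4 libraries of low olfactory bulb level. Of the 362 genes 156 were higher and 206 lower. Over the single libraries left out it ran from 668 to 1629, and over the other 13 alternatives from 918 to 1464. These held 918 from the compared groups alone, 922 with choroid plexus level, 1114 by edgeR and 1306 by DESeq2. Of the 922 genes 621 were among the 1232, and of the 918 genes 845. All 1232 genes kept their sign in each of the 38 settings that tested them (1062 of them at a mean of at least 100). As the settings reuse the libraries in which the genes were chosen, this is favoured by construction. Sex by fluoxetine passed in 0 genes, in 1 with choroid plexus level, and in 0 to 0 with a library left out. Genotype by fluoxetine passed in 7 genes, in 1 without the trend, in 0 from the compared groups alone, in 1 with the replicate block, in 1 with olfactory bulb level, in 13 with striatal level, in 12 with the slope, in 17 by DESeq2, in 0 by limma on the libraries of the count tests, in 0 without the 4 libraries, in 13 with log2 reads, in 1 with olfactory bulb level and slope, in 1 with choroid plexus level, and in 1 to 46 with a library left out. Fluoxetine against lithium passed in 702 genes, in 228 from the compared groups alone, in 365 with the replicate block, in 1324 with olfactory bulb level, in 144 with log2 reads, in 1071 with olfactory bulb level and slope, and in 247 to 2445 with a library left out. Fits of the compared groups alone and with libraries left out hold fewer samples. The cause of the changes in number was not tested for any setting. The settings with log2 reads, choroid plexus level, both covariates, the libraries of the count tests and the removal of 4 libraries were chosen after seeing the data. Among the named genes, 65 of the 118 that passed did so in each of 38 settings, 53 lost the call in 1 or more and 0 reversed, and of the 52 that did not pass 12 passed in 1 or more.

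Replicate numbers did not pair the samples: of 10 same-numbered fluoxetine and vehicle pairs of the same sex, 2 had deviations correlated over 0.1 and 1 correlated best with its own number. With the replicate block 763 of the 770 genes were among the 1232. Depth limits genes of low count such as Plin4, Depp1 and Derl3, whose log2 differences also depend on the pseudocount.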
